A study of Homo sapiens with 6 samples.

Results

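The 9 genes described here are TGF-beta ligands, receptors, SMADs and responsive genes: TGFB1, TGFB2, TGFBR1, TGFBR2, SMAD3, SMAD7, SKIL, TGFBI and PTHLH. They were picked by name from 38637 genes, with their values in the comparison below already known, so that comparison is given for them as a description, with no test. All 9 averaged 1 TPM or more (a level scaled for transcript length and library depth), as did 13980 genes in all. HCCLM3-SR cells are a line derived from the metastatic human hepatocellular carcinoma (HCC) line HCCLM3 by long-term culture in rising concentrations of sorafenib, a kinase inhibitor used in advanced HCC. To look for targets of cDCBLD2, a circular RNA made from exons of the DCBLD2 gene, the study sequenced poly(A) RNA from 3 libraries of cells transfected with si-cDCBLD2 (cDCBLD2 knockdown) and 3 transfected with siCTRL (control). All 6 libraries came from this same cell line under 5 µM sorafenib and siRNA for 3 days, so neither agent can be compared with its absence here. The labels number the libraries 1 to 3 in each group and do not say that they came from separate cultures, so p-values measure the spread between these libraries, which may be technical.

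TGF-beta is secreted in a latent form and acts once it is released from its propeptide and binding proteins. The active ligand binds the type II receptor TGFBR2, which phosphorylates the type I receptor TGFBR1, and TGFBR1 phosphorylates SMAD2 and SMAD3, which enter the nucleus with SMAD4 and bind DNA. SMAD7 blocks the activated receptor and SKIL holds back SMAD target genes, and both are themselves induced by the pathway as feedback. In the liver the pathway restrains hepatocyte growth and drives fibrosis, and in HCC it is known for growth arrest in some cells and for invasion and epithelial-mesenchymal transition in others.

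The promoters of 4 of the genes are printed first, those of the ligand genes TGFB1 and TGFB2, whose levels as deposited differed in opposite directions (with an offset for GC content, described below, both were higher with knockdown), and those of the responsive genes PTHLH and TGFBI, which had the largest differences between the groups. Each is the 300 bases at the first listed RefSeq start of the gene (build GRCh38.p14), with SMAD boxes (CAGAC, or GTCTG on the other strand) in capitals. The TGFB1 window lies at chr19:41353873-41354172 on the minus strand, the TGFB2 window at chr1:218345086-218345385 on the plus strand, the PTHLH window at chr12:27969927-27970226 on the minus strand and the TGFBI window at chr5:136028738-136029037 on the plus strand.
TGFB1: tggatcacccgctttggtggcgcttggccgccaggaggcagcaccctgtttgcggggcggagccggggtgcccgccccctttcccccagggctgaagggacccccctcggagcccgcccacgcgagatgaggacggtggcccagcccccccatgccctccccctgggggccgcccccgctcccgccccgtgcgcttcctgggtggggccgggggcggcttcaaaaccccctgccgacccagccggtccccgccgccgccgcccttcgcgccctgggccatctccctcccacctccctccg
TGFB2: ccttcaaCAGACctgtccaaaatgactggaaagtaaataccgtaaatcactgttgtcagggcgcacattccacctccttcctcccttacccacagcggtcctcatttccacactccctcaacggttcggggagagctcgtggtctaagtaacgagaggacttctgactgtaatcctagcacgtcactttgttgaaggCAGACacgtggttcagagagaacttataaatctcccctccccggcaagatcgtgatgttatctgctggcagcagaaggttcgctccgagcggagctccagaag
PTHLH: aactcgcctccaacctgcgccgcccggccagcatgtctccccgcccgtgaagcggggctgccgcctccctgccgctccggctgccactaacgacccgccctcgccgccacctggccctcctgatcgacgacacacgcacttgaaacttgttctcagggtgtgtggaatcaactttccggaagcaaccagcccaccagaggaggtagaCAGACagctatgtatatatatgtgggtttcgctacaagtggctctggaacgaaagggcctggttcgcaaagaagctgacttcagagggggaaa
TGFBI: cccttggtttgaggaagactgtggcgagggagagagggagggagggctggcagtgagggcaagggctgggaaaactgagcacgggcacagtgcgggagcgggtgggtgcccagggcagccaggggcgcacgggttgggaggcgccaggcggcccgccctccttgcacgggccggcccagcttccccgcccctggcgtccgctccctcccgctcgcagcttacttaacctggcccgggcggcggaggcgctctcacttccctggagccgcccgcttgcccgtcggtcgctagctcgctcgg
A SMAD box stood 2 times in the TGFB2 window and 1 time in the PTHLH window, and these letters were not in the TGFB1 and TGFBI windows. Of the 23 RefSeq windows of the 9 genes, 12 held a SMAD box, as did 45.3% of all 35116 windows of this length. Windows of the same gene can overlap and share a SMAD box, as at TGFBR1, so the 23 are not separate promoters. The palindrome GTCTAGAC was in 0 of the 23 and in 0.202% of all windows, and the AP-1 motif TGANTCA was in 2 of the 23 and in 7.71% of all windows. GC content of the printed windows was 77.3% for TGFB1, 72.7% for TGFBI, 60.3% for PTHLH and 51.7% for TGFB2.

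The study asked whether cDCBLD2 acts by binding miR-345-5p, so the genes were also searched for matches to that miRNA. Its mature sequence is printed with the seed (bases 2 to 8) in capitals, from MIR345 at chr14:100307876-100307897 on the plus strand (RefSeq, GRCh38.p14). The matches in the 9 genes follow, as 27 bases of the longest coding transcript in GENCODE release 29 (GRCh38) with the letters GAGTCAG in capitals.
miR-345-5p: gCUGACUCcuaguccagggcuc
TGFB2: taaagcacaaGAGTCAGgccatatcca
SMAD3: aagcctagagGAGTCAGgagcagggac
SMAD7: cggacaacaaGAGTCAGctggtgcaga
The match in TGFB2 lies in the 3′ UTR at chr1:218444148-218444174 (plus strand), that in SMAD3 in the 3′ UTR at chr15:67193589-67193615 (plus strand), and that in SMAD7 in the coding sequence at chr18:48921719-48921745 (minus strand). The 3 genes with a match stand against 24.5% of 11803 coding genes, and as deposited the level of TGFB2 was lower with knockdown in each numbered pair of libraries and those of SMAD3 and SMAD7 were higher. With the offset for GC content the log2 fold changes of all 3 were positive, at 0.09 (SE 0.10), 0.28 (SE 0.09) and 0.14 (SE 0.18). Such a match is a description of the letters and not a known binding site.

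**Figure D1:**
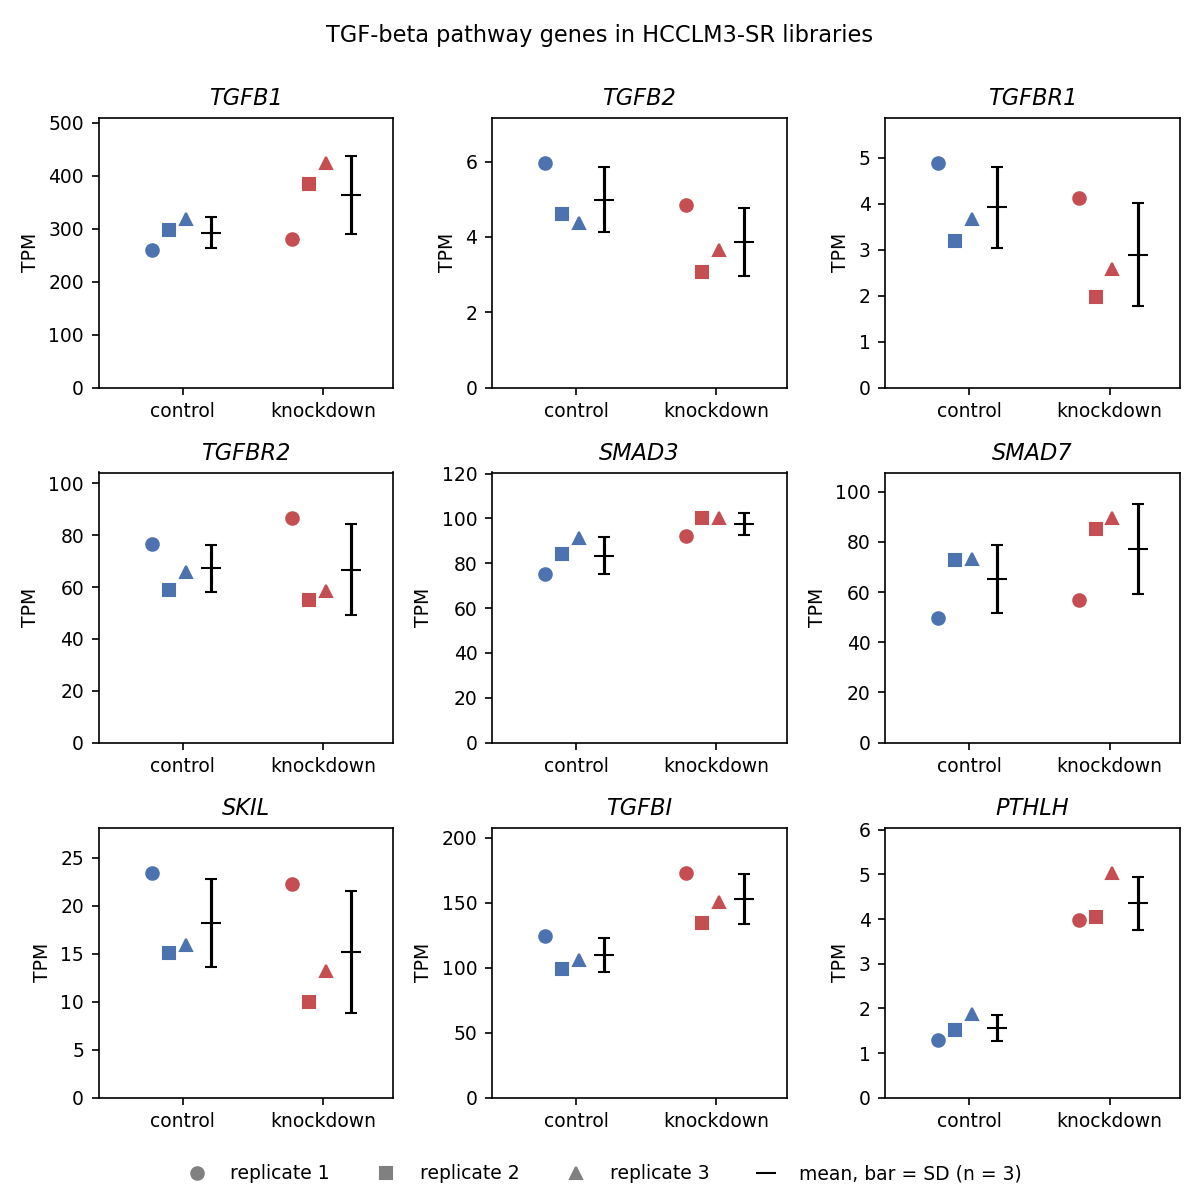
Level of each of the 9 genes in TPM (vertical axes, linear from 0) in the 3 control (blue) and 3 knockdown (red) libraries, with the mean and SD beside them. The groups do not overlap for SMAD3, TGFBI and PTHLH, and replicate 1 is the lowest library of both groups for TGFB1, SMAD3, SMAD7 and PTHLH and the highest of both for the other 5.

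TGFB1 was by far the main TGF-beta ligand gene of these cells. It ranked 459 among the 13980 genes by mean level, with 96.7% of genes below it, whereas TGFB2 ranked 10558. TGFB1 made up 98.51% ± 0.58 (SD, n = 3) of the summed level of TGFB1, TGFB2 and TGFB3 in knockdown libraries and 97.66% ± 0.60 in control libraries. In order of mean level the 9 genes were TGFB1, TGFBI, SMAD3, SMAD7, TGFBR2, SKIL, TGFB2, TGFBR1 and PTHLH, and the ratio of the highest to the lowest mean was 110.7. The libraries of TGFB1 and of SKIL did not overlap with those of their neighbours in this order, whereas from TGFBI to TGFBR2, and again from TGFB2 to PTHLH, the range of each gene overlapped with that of the next.

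TGFB1 (chr19:41301587-41353911, minus strand, GRCh38) stood at 281, 384 and 425 TPM in knockdown replicates 1 to 3 and at 261, 298 and 318 TPM in control replicates 1 to 3. It was higher in each knockdown library than in the control library of the same number, by 0.11, 0.37 and 0.42 on the log2 scale, although knockdown replicate 1 lay below control replicates 2 and 3. The log2 fold change of TPM + 1 was 0.30 (SE 0.16). In bulk libraries a change in the share of cells that use a gene and a change in RNA per cell cannot be told apart. TGFB2 (chr1:218346235-218444619, plus strand), which encodes a ligand that needs the coreceptor TGFBR3 for strong receptor binding, went the other way. Its level was 4.84, 3.07 and 3.67 TPM in knockdown replicates 1 to 3 against 5.98, 4.60 and 4.38 TPM in control, lower in each pair but with overlapping groups (log2 fold change -0.31, SE 0.18). The ratio of TGFB1 to TGFB2 was 99.8 ± 36.4 (SD, n = 3) in knockdown and 60.3 ± 15.0 in control libraries, and these ranges overlapped, with knockdown replicate 1 at 58.1. It compares transcripts of 63.5% and 38.9% GC. With the offset for GC content the log2 fold changes of TGFB1 and TGFB2 were 0.16 and 0.09, much closer to each other.

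The type II receptor gene TGFBR2 (chr3:30606502-30694142, plus strand) was the more abundant receptor gene and had no direction. It stood at 86.8, 54.8 and 58.4 TPM in knockdown replicates 1 to 3 and at 76.8, 59.0 and 65.9 TPM in control, with a mean of 66.7 ± 17.5 against 67.2 ± 9.0 (SD, n = 3). Its log2 fold change of -0.03 (SE 0.19) turned positive under 8 of 15 other ways of computing it. The type I receptor gene TGFBR1 (chr9:99104038-99154192, plus strand) was low in every library, at 4.13, 1.97 and 2.58 TPM in knockdown and 4.90, 3.18 and 3.68 TPM in control. It was lower in each pair, by 0.25 to 0.69 on the log2 scale, but knockdown replicate 1 lay above control replicates 2 and 3 (log2 fold change -0.36, SE 0.24). The level of TGFBR2 was 23.8 ± 3.5 times (SD, n = 3) that of TGFBR1 in knockdown and 17.4 ± 1.5 times in control libraries. All 3 knockdown ratios (21.0 to 27.8) lay above the 3 control ratios (15.7 to 18.5). These ratios compare transcripts of 47.4% and 38.9% GC, and with the offset for GC content the log2 fold changes of TGFBR2 and TGFBR1 were 0.11 and 0.04, much closer to each other.

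Among the nuclear and inhibitory genes, SMAD3 (chr15:67063763-67195195, plus strand), which carries the signal to DNA, was 91.9, 100.4 and 100.3 TPM in knockdown against 75.0, 84.0 and 91.3 TPM in control. The lowest knockdown library stood just above the highest control library, and the log2 fold change was 0.23 (SE 0.09). SMAD7 (chr18:48919853-48952052, minus strand), the inhibitory SMAD, was 56.6, 85.1 and 89.7 TPM in knockdown against 49.6, 72.7 and 73.3 TPM in control. It was higher in each pair by 0.19 to 0.29 on the log2 scale, and replicate 1 was the lowest library of both groups, which overlapped (log2 fold change 0.23, SE 0.22). The ratio of SMAD7 to SMAD3 was 0.786 ± 0.149 (SD, n = 3) in knockdown and 0.777 ± 0.104 in control, a difference within the spread between replicates. SKIL (chr3:170357678-170396835, plus strand), which encodes the corepressor SnoN, was 22.2, 9.97 and 13.2 TPM in knockdown against 23.4, 15.1 and 15.9 TPM in control. It was lower in each pair, but the replicate 1 libraries of both groups were higher than all others (log2 fold change -0.29, SE 0.30).

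The responsive genes showed the largest differences. PTHLH (chr12:27958084-27972705, minus strand) encodes parathyroid hormone-related protein (PTHrP), a TGF-beta target known from bone metastasis and from hypercalcaemia in cancer. It was 3.97, 4.05 and 5.04 TPM in knockdown against 1.30, 1.52 and 1.88 TPM in control, so that each knockdown library lay above the highest control library by more than the range of either group. The ratio of means was 2.78. Its log2 fold change of TPM + 1 was 1.06 (SE 0.15), a scale that understates changes of genes at this low level, and limma-voom on recovered reads gave 1.56 (SE 0.22). The recovered reads, which are lower bounds, were 88, 122 and 141 in knockdown and 28, 39 and 48 in control. TGFBI (chr5:136028895-136063818, plus strand) encodes a secreted matrix protein induced by TGF-beta. It was 173, 135 and 151 TPM in knockdown against 124, 99.1 and 106 TPM in control, with log2 ratios of 0.48, 0.45 and 0.51 in the 3 pairs (log2 fold change 0.47, SE 0.12). The groups did not overlap, and the 3 pairs gave nearly the same ratio although replicate 1 was the highest library of each group.

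**Figure D2:**
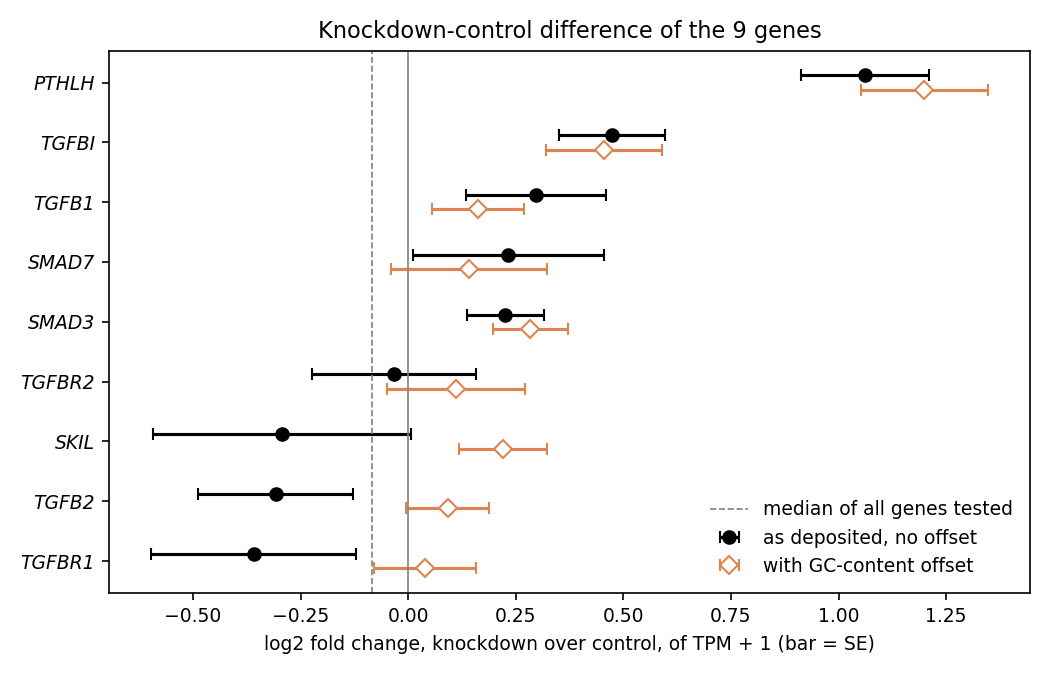
Log2 fold change of TPM + 1, knockdown over control (horizontal axis), for the 9 genes, as deposited (black) and with the GC-content offset, which takes out the trend of a library's values with transcript GC content (orange), with SE bars and a dashed line at the median of all genes tested (-0.08). The values of TGFB2, TGFBR1 and SKIL move from below 0 to above 0 with the offset, and PTHLH and TGFBI lie farthest to the right on either scale.

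Across the 9 genes, 3 had groups that did not overlap, each higher with knockdown (SMAD3, TGFBI and PTHLH), and 0 had groups that did not overlap in the other direction. Of all 13980 genes, 9.58% were higher and 22.3% lower without overlap. The 9 genes were chosen from this comparison, so nothing is read from that count. Their median log2 fold change was 0.23, beside -0.08 for all genes tested. Counted by pair, 5 genes were higher in all 3 pairs, 3 were lower in all 3 (TGFB2, TGFBR1 and SKIL), and TGFBR2 was mixed.

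The direction of most of the 9 genes went with the GC content of their transcripts. TGFB2, TGFBR1 and SKIL, the genes lower in each pair, have transcripts with 38.9%, 38.9% and 33.4% GC, and TGFB1, SMAD7, TGFBI and SMAD3, with 50.4% to 63.5%, were higher. Over the 9 genes, which share the same 6 libraries, Spearman's rho of log2 fold change with GC content was 0.72. The same held across all genes: rho was 0.64 over the 13163 genes with a GC content, and the median log2 fold change went from -0.40 in the fifth of genes with the lowest GC content to 0.11 in the fifth with the highest. With the GC-content offset, all 9 genes had a positive log2 fold change, beside 49.0% of all genes, against 5 of the 9 and 37.6% of all genes without that step. As these genes were chosen from this comparison, nothing is read from these shares. The values for TGFB2, TGFBR1, TGFBR2 and SMAD7 then were 0.09 (SE 0.10), 0.04 (SE 0.12), 0.11 (SE 0.16) and 0.14 (SE 0.18), each smaller than its SE. Those of TGFB1, SKIL and SMAD3 were 0.16 (SE 0.11), 0.22 (SE 0.10) and 0.28 (SE 0.09). PTHLH and TGFBI stood at 1.20 (SE 0.15) and 0.46 (SE 0.13). PTHLH, with 47.6% GC, lay far above the median of the fifth of genes with like GC content (-0.08), whose spread was not counted. The part of GC content in these differences was not tested.

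**Figure D3:**
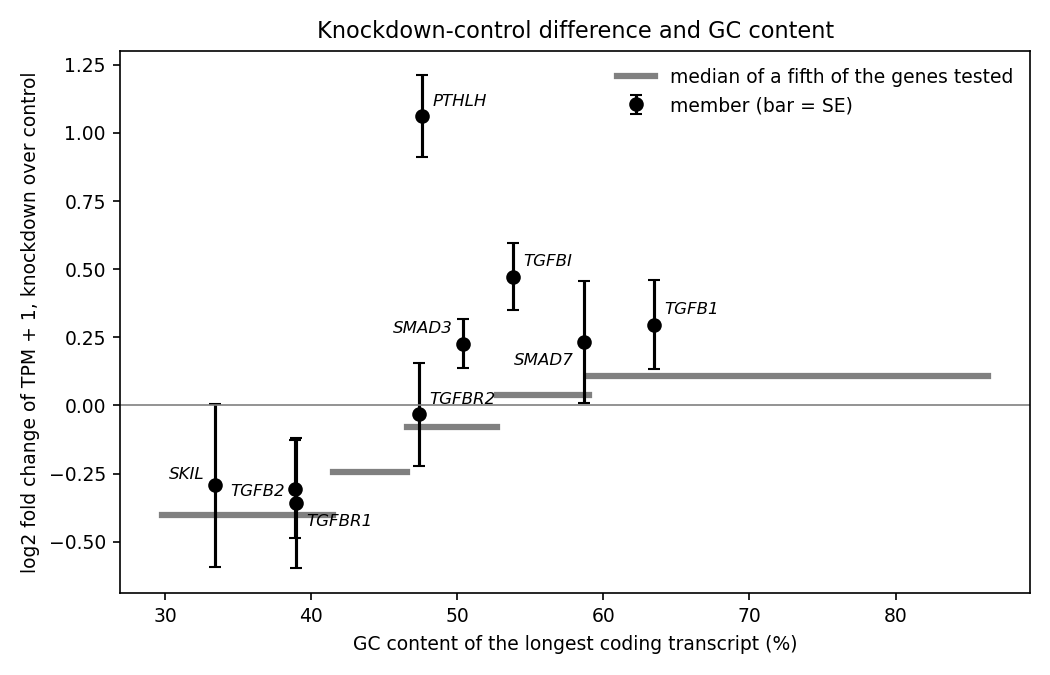
Log2 fold change of TPM + 1, knockdown over control (vertical axis, SE bars), against the GC content of the longest coding transcript in percent (horizontal axis) for the 9 genes. Grey bars are the medians of 5 equal groups of all genes by GC content, from -0.40 at the left to 0.11 at the right; TGFB2, TGFBR1 and SKIL lie near their bar and PTHLH lies far above it.

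Replicate number moved several of the genes as much as the knockdown did. On the scale of log2(TPM + 1), SKIL in replicate 1 stood 0.89 above the mean of replicates 2 and 3 in knockdown and 0.57 above it in control, and TGFBR1 stood 0.65 and 0.41 above. TGFB1 lay below by -0.52 and -0.24 and SMAD7 by -0.62 and -0.55. PTHLH differed by only -0.15 and -0.23, and TGFBI by 0.28 and 0.27. Single libraries therefore moved the log2 fold changes of 6 genes by more than 1.5 times. Without knockdown replicate 1 the values were 0.47 for TGFB1, 0.44 for SMAD7, -0.59 for SKIL, -0.58 for TGFBR1 and -0.24 for TGFBR2. Without control replicate 1 they were 0.05 for SMAD7, -0.10 for SKIL, -0.22 for TGFBR1, -0.19 for TGFB2 and 0.07 for TGFBR2, which was -0.12 without control replicate 2. Without knockdown replicate 2 they were 0.15 for SMAD7, -0.05 for SKIL, -0.18 for TGFBR1, -0.19 for TGFB2 and 0.09 for TGFBR2, and without knockdown replicate 3 they were 0.17 for TGFB1, 0.11 for SMAD7 and 0.05 for TGFBR2. SMAD3, TGFBI and PTHLH moved by less than 1.5 times whichever library was left out. With the replicate number as a block the SE of SKIL fell from 0.30 to 0.10, that of SMAD7 from 0.22 to 0.05 and that of TGFBI from 0.12 to 0.04, with the same log2 fold changes.

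The gene whose level was most alike over the 6 libraries, by Pearson's r of log2(TPM + 1) among 8187 genes averaging 10 TPM or more, was FIBCD1 for TGFB1 (r = 0.999), ARF6 for TGFB2 (0.998), FMR1 for TGFBR1 (0.999), GALNT5 for TGFBR2 (0.992), FAM219B for SMAD3 (0.996), CLDN7 for SMAD7 (0.999), GMFB for SKIL (0.995), GPRC5A for TGFBI (0.997) and PCED1B for PTHLH (0.999). With 6 libraries such values are common: between 78 and 465 genes reached an r over 0.95 with each of the 9. FMR1 shows the shared pattern, with 17.9, 8.79 and 11.6 TPM in knockdown and 22.6, 14.1 and 16.3 TPM in control, the same order of libraries as for TGFBR1. PCED1B was 80.1, 84.5 and 95.0 TPM in knockdown and 44.8, 48.0 and 53.4 TPM in control, the order of PTHLH.

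Other genes of the pathway were taken from lists of 136 genes, of which 108 averaged 1 TPM or more. The lists were drawn up with earlier results of these data known. Their counts and p-values therefore describe the listed genes and are no independent support. By limma on log2(TPM + 1), 2 of the 108 rose with knockdown and 0 fell at an adjusted p under 0.05, and 41 had an unadjusted p under 0.05. The share of all genes at that unadjusted level was not counted, so nothing is read from the 41. Of all 13980 genes, 0.250% rose and 0.629% fell. With the replicate number as a block, 27 of the 108 passed as higher and 30 as lower, beside 9.94% and 25.0% of all genes. With the GC-content offset as well, 32 passed as higher and 11 as lower, beside 11.7% and 12.9%. The groups did not overlap for 20 genes higher and 24 lower, beside 9.58% and 22.3% of all genes. The median log2 fold change of the 108 was -0.03, against -0.08 for all genes.

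**Figure D4:**
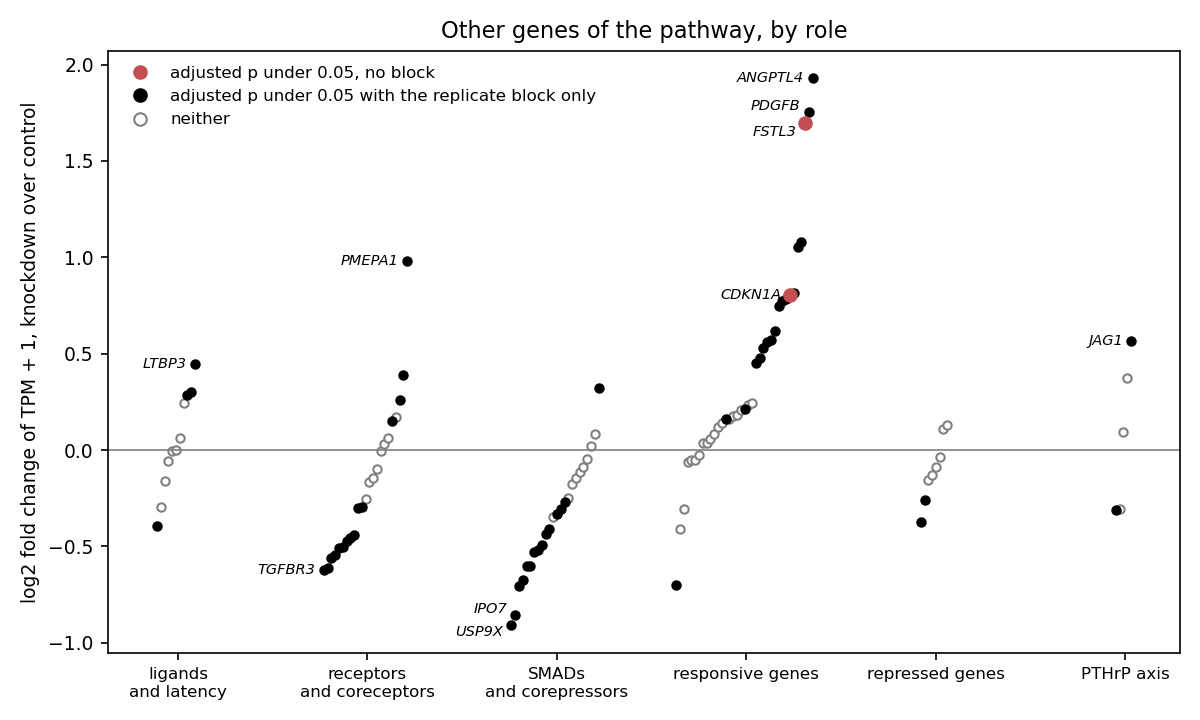
Log2 fold change of TPM + 1, knockdown over control (vertical axis), of the 108 other pathway genes in 6 lists by role (horizontal axis), in order of size within a list. Red points passed an adjusted p of 0.05 without the block (FSTL3 and CDKN1A), other black points only with the replicate block, and open points in neither. Filled points of the responsive genes lie above 0 with 1 exception, and most filled points of the receptors and of the SMADs and corepressors lie below it, which for the receptors was not so with the GC-content offset (5 higher and 1 lower).

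Both genes that rose without the block were in the list of responsive genes, which was drawn up with earlier results of these data known. FSTL3, a secreted antagonist of activin, was 200.1, 164 and 212 TPM in knockdown and 59.9, 52.7 and 62.6 TPM in control, with a log2 fold change of 1.69 (SE 0.12, limma adjusted p = 0.0347, from 2.57e-06 to 0.222 over the alternatives). CDKN1A, the cell cycle inhibitor p21, was 138, 138 and 152 TPM in knockdown and 78.3, 80.9 and 83.6 TPM in control, with a log2 fold change of 0.81 (SE 0.07, limma adjusted p = 0.0444, from 5.73e-05 to 0.222). The libraries of the groups lay far apart for both genes. Both calls ended when any single library other than knockdown replicate 1 was left out, with limma adjusted p between 0.0604 and 0.222, and that of CDKN1A also without a filter on low levels (adjusted p = 0.0554).

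Of the 37 responsive genes tested, 18 passed as higher and 1 as lower with the block, beside 9.94% and 25.0% of all genes. With the GC-content offset as well, 22 passed as higher and 1 as lower, beside 11.7% and 12.9%. The groups did not overlap for 13 genes higher and 1 lower, beside 9.58% and 22.3%, and the median log2 fold change was 0.21, against -0.08 for all genes. Since the list was drawn up with earlier results known, nothing is read from these counts. ANGPTL4, a secreted inhibitor of lipoprotein lipase, had the largest value, 1.93 (SE 0.87), which was 1.04 without control replicate 1 and then below those of FSTL3 (1.71) and PDGFB (1.52). It was measured at 87.5, 258 and 392 TPM in knockdown against 14.9, 82.5 and 122 TPM in control, and the groups overlapped while each pair differed in the same direction. PDGFB, a growth factor for mesenchymal cells, was 23.0, 29.7 and 47.1 TPM against 6.11, 9.51 and 11.4 TPM, without overlap (log2 fold change 1.75, SE 0.30, limma adjusted p = 0.0544 without and 0.00348 with the block, from 2.40e-05 to 0.222 over the alternatives). The lower gene that passed with the block was ZEB1, a repressor of epithelial genes, at -0.70 (SE 0.28), and it did not pass with the offset as well (-0.29). The lower gene that passed there was SPHK1, which makes sphingosine-1-phosphate, at -0.19, named after its values were seen. ZEB2 and HMGA2, known from epithelial-mesenchymal transition, had values of -0.41 (SE 0.14) and -0.31 (SE 0.27), which were -0.01 and 0.10 with the offset, and did not pass.

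Among genes for receptors and coreceptors the balance turned with the GC-content offset. Of 23 tested, 4 passed as higher and 11 as lower with the block, beside 9.94% and 25.0% of all genes, and 5 as higher and 1 as lower with the offset as well, beside 11.7% and 12.9%. The groups did not overlap for 3 genes higher and 5 lower, beside 9.58% and 22.3%, and the median log2 fold change was -0.26 and with the offset -0.03. PMEPA1, a feedback inhibitor of the receptors' access to SMADs, was 17.7, 11.5 and 13.5 TPM in knockdown against 7.18, 6.05 and 6.68 TPM in control, without overlap (log2 fold change 0.98, SE 0.16, limma adjusted p = 0.0539 without and 0.00481 with the block, from 0.000111 to 0.222 over the alternatives). BAMBI, a pseudoreceptor that damps the signal, stood at 0.39 (SE 0.13) and ACVR1B, the type I activin receptor, at 0.26 (SE 0.07). TGFBR3, the coreceptor also called betaglycan, was 4.41, 4.31 and 4.91 TPM against 7.02, 7.45 and 8.18 TPM, without overlap (log2 fold change -0.62, SE 0.11, limma adjusted p = 0.0549 without and 0.00763 with the block, from 0.00101 to 0.224 over the alternatives). The next lowest were USP15 and WWP1, enzymes of ubiquitin removal and transfer that act on the receptor, at -0.61 (SE 0.38) and -0.56 (SE 0.23). With the offset these were -0.16 and -0.16 and did not pass, TGFBR3 was -0.36 and did, and the next lowest was ACVR2B, a type II activin receptor, at -0.31, named after its values were seen.

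Of 24 genes for SMADs and corepressors, 1 passed as higher and 14 as lower with the block, beside 9.94% and 25.0% of all genes. With the GC-content offset as well, 1 passed as higher and 7 as lower, beside 11.7% and 12.9%. The median log2 fold change was -0.34 and with the offset -0.19. The lowest were USP9X, a deubiquitinase of SMAD4, at -0.91 (SE 0.27), IPO7, an importin that carries SMADs, at -0.86 (SE 0.22), and SMAD5, of the BMP branch, at -0.70 (SE 0.21). With the offset they were -0.55, -0.43 and -0.26, and SMAD5 no longer passed. IPO7 was 111, 61.8 and 68.7 TPM in knockdown and 156, 131 and 140 TPM in control, so that the groups did not overlap. FOXH1, a DNA-binding partner of SMAD2, was the higher gene with the block, at 0.32 (SE 0.12), and did not pass with the offset as well (0.19). The gene that passed as higher there was the corepressor gene TGIF1, named after its values were seen, at 0.29 against -0.05 without the offset. SKI, the closest relative of SKIL, stood at 0.08 (SE 0.11), and SMAD6, the other inhibitory SMAD, at 0.02 (SE 0.22), and both signs turned with the GC-content offset.

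Of 11 genes for ligands and latency tested, 3 passed as higher and 1 as lower with the block, beside 9.94% and 25.0% of all genes. With the GC-content offset as well, 3 passed as higher and 0 as lower, beside 11.7% and 12.9%. The higher genes were LTBP3, a latent TGF-beta binding protein, at 0.45 (SE 0.11), and THBS1, which can free the latent ligand, at 0.30 (SE 0.19). The other was FURIN, the protease that cleaves its precursor, at 0.29 (SE 0.06). ITGB1, an integrin subunit, was the 1 gene that passed as lower, at -0.39 (SE 0.21), and it no longer passed with the offset. TGFB3 reached at most 2.16 TPM in any library and stood at -0.30 (SE 0.14), and the integrin subunit gene ITGAV at -0.16 (SE 0.36), which turned positive with the offset. Of 8 genes known to be repressed by TGF-beta, 0 passed as higher and 2 as lower with the block, beside 9.94% and 25.0% of all genes. The share that passed as lower was thus close to that of all genes. These were TERT (-0.37, SE 0.14) and ESRP2 (-0.26, SE 0.07). With the offset as well the counts were again 0 and 2, beside 11.7% and 12.9% of all genes, with TERT at -0.53 and ESRP2 at -0.36. CDH1 and ID1, the E-cadherin gene and a target of the BMP branch, stood at 0.11 (SE 0.21) and 0.13 (SE 0.11). The values were -0.15 (SE 0.21) for ID2 and -0.04 (SE 0.31) for CDC25A.

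Of the 10 genes listed for the PTHrP axis, 5 were tested and 3 were listed at 0 in every library. PTHLH averaged 4.36 TPM in knockdown and 1.57 TPM in control. By mean level JAG1 (121 and 80.4 TPM), ETS1 (13.3 and 16.65 TPM) and GLI2 (9.89 and 9.17 TPM) stood above it, and PTH1R and RUNX2 below it. PTH1R, the receptor of PTHrP, was 1.15, 2.04 and 3.08 TPM in knockdown and 0.960, 1.64 and 1.36 TPM in control, with overlapping groups (log2 fold change 0.38, SE 0.26). JAG1, a Notch ligand, passed as higher with the block (0.57, SE 0.15), and ETS1, a transcription factor known to act with SMAD3 on PTHLH, passed as lower (-0.31, SE 0.15) but not with the offset. That is 1 gene higher and 1 lower of 5 tested, beside 9.94% and 25.0% of all genes. With the offset as well it was 1 and 0, beside 11.7% and 12.9%. GLI2, another activator of PTHLH, stood at 0.10 (SE 0.14), and RUNX2, a bone transcription factor, at -0.31 (SE 0.14).

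The checks of the libraries bear on all of these values. DCBLD2, the host gene of the targeted circular RNA, was 58.2, 25.9 and 31.6 TPM in knockdown and 71.5, 48.5 and 50.7 TPM in control. Its log2 fold change was -0.61 (SE 0.31, limma adjusted p = 0.253 without and 0.0139 with the block, from 0.00275 to 0.550 over the alternatives). With the GC-content offset it was -0.29 (SE 0.21, limma adjusted p = 0.468 without and 0.0499 with the block). The paper reports no clear and consistent change of DCBLD2 mRNA or protein over its resistant lines after the knockdown. Poly(A) libraries counted by gene do not check the circular RNA itself, whose knockdown the paper measured by qRT-PCR. Recovered reads ran from 17492673 to 23064302 per library, and replicate 1 was the shallowest of each group. The summed level of epithelial markers was high, at 5862 to 7008 TPM in knockdown and 4856 to 5659 TPM in control. Of these 5 markers 4 averaged 1 TPM or more, and EPCAM averaged only 0.134 TPM in knockdown and 0.193 TPM in control. Of 13 hepatocyte markers 6 reached 1 TPM, with ALB not among them. Fibroblast and stellate markers summed to 29.2 to 63.8 TPM in knockdown and 29.7 to 41.1 TPM in control, with DES at 0, endothelial markers to 4.69 to 5.23 and 3.87 to 5.90 TPM with TIE1 at 0, and leukocyte markers to 5.80 to 8.90 and 5.59 to 6.72 TPM with CD3D, CD3E and MS4A1 at 0. The markers of these lists that averaged 1 TPM or more were LUM and COL3A1 (fibroblast and stellate), PECAM1 (endothelial), and LYZ and ITGAM (leukocyte).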

How the data were processed

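The authors deposited TPM values per gene for the 6 PolyA-Seq libraries, scaled so that every library has the same total. The submitters' processing notes name fastp 0.20.1, HISAT2 2.1.0, StringTie 2.0 and hg38. The annotation and strand setting are not given in the sources used here. TPM hides depth, so whole reads were recovered from the ratios of a gene's values over libraries. They are lower bounds, and 100.0% of 17285 genes above 0 in all libraries came out whole, against 0.93% with the library factors moved at random. The 13980 genes averaging 1 TPM or more were fitted on the scale log2(TPM + 1) by limma 3.58.1 (R 4.3.3, trended prior variance), and p-values were adjusted over all of them by the Benjamini-Hochberg method. Fold changes of low genes are understated on this scale. GC content and transcripts came from GENCODE release 29, which matched 25655 gene names directly and 1562 through older names, leaving 11420 unmatched, and the trend with GC content was removed by loess with a span of 0.5. Promoters and the miRNA came from RefSeq.

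The members and all gene lists were chosen with earlier results of these data known. Besides the 9 genes, the text names each listed gene called without the block, the 3 highest and 3 lowest of each list, DCBLD2, and the gene most alike to each of the 9, chosen by fixed rule. Libraries were paired by the replicate number in their labels. Deviations from the group mean correlated between same-numbered libraries at r = 0.56, 0.34 and 0.36 over 13980 genes. These values cannot decide whether each number forms a pair. Libraries of different number were not correlated, and deviations cancel out within a group, so a shift shared by the replicate 1 libraries alone can make all of them positive. Values with the replicate block assume the pairing. What a number shares (culture, day or batch) is not labelled. The steps were tested on simulated data.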

Additional observations from a re-analysis of the deposited data

How the results depend on the processing

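Of 132 member values recomputed under 15 alternatives, 123 moved by less than 1 SD between replicates and 9 by more, which were TGFB2, TGFBR1 and SKIL with the GC-content offset and PTHLH with limma-voom or a pseudocount of 0.1. The 123 include values that could not move. The replicate block and the changed filters leave a gene's log2 fold change as it was, and the block leaves that with the GC-content offset unchanged too. The count of other pathway genes called higher was 2, and that of genes called lower was 0. With the replicate block these counts were 27 and 30 of 108, beside 9.94% and 25.0% of all genes. With the GC-content offset and replicate block they were 32 and 11 of 108, beside 11.7% and 12.9%. With limma-voom on recovered reads they were 8 and 2 of 119 tested, and with limma-voom and the replicate block 40 and 29 of 119. With a mean of at least 5 TPM they were 5 and 4 of 89. Without a filter 1 of 133 genes was called higher. With upper-quartile scaling 4 of 108 were called higher, and with a pseudocount of 0.1 2 of 108 were called lower. Leaving out 1 library at a time gave 0 to 17 higher and 0 to 24 lower of 108. The counts were 17 and 24 when knockdown replicate 1 was left out and 0 and 0 for each of the other 5 libraries. For those 5, limma gave 31 to 37 genes an unadjusted p under 0.05. The shares of all genes were counted only without the block, with it, and with the offset and the block. Nothing is therefore read from the counts under the other settings. The cause of the differences between settings was not tested. Some uncalled genes changed sign: with the GC-content offset, with or without the block, ITGAV was 0.252, SMAD6 -0.072, SKI -0.023, HMGA2 0.096 and GLI2 -0.017, and CDC25A was 0.039 with limma-voom, 0.088 with limma-voom and the block and 0.032 with upper-quartile scaling. Leaving out 1 library at a time gave -0.563 to 0.151 for ITGAV, -0.1 to 0.261 for SMAD6, -0.28 to 0.084 for ID2, -0.38 to 0.181 for CDC25A, -0.036 to 0.316 for CDH1 and -0.014 to 0.179 for GLI2. Upper-quartile scaling moved the median of all genes from -0.08 to -0.02. Of the 9 genes PTHLH had the fewest recovered reads, 28 to 141 per library.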
